A study of Mus musculus with 7 samples.

Results

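Genes that act in the early gonad were followed through 7 single-cell libraries of the developing mouse ovary. The set held 10 genes of the 31053 in the deposited matrices, given by name: Gata4, Wt1, Nr5a1, Lhx9, Emx2, Cbx2, Nr0b1, Tcf21, Nr2f2 and Nr2f1. All were found once in each matrix. The animals were untreated C57BL/6J wild-type mice, and the libraries were labelled gonad at E11.5, with no sex given, and ovary at the 6 later ages (E12.5 and E14.5, then E16.5 and E18.5, then P1 and P5). Each age was 1 library of pooled organs, dissociated in trypsin for 20 min at E11.5 and E12.5, 40 min at E14.5 and E16.5, 60 min at E18.5 and 80 min at P1 and P5. With 1 library per age there was no replicate error and no test, and age, library and dissociation time cannot be told apart. Every interval given is a 95% exact interval that covers counting error only.

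The gonad forms as a thickening of the coelomic epithelium over the mesonephros. Gata4 and Wt1 are zinc finger factors and Lhx9 and Emx2 are homeodomain factors, each known from knockout mice to be needed for a gonad to form or persist. Nr5a1, also called SF1, is a nuclear receptor that turns on steroidogenic genes and is needed for gonads and adrenals. Nr0b1, also called DAX1, is an atypical nuclear receptor that represses Nr5a1 targets, and Cbx2 is a Polycomb subunit whose loss disturbs gonad growth and sex determination. Tcf21 is a basic helix-loop-helix factor of organ mesenchyme. Nr2f2 and Nr2f1 are the COUP nuclear receptors, common in mesenchyme.

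Promoter letters are shown for 4 members because the members separated by somatic class (results that follow): Lhx9 and Nr0b1 were higher in pregranulosa cells, Tcf21 and Nr2f2 in stroma. Sequences came from RefSeq on GRCm38.p6, and 6 of the 10 members had an entry. The 250 bases before the start of each gene were searched on both strands for AGATAA and TGATAA (bound by GATA factors), AGGTCA (bound by nuclear receptors such as Nr5a1) and TAATTA (bound by homeodomain factors). Each line is written 5′ to 3′ on the strand of the gene, with a match in capitals.
Lhx9, chr1:138842486-138842515, minus strand, 30 bases: cctcctactaaaTTATCAaaaatgggctgg
Tcf21, chr10:22820157-22820186, minus strand, 30 bases: tctctattccccAGATAAattcttagtgtc
Nr0b1, chrX:86191525-86191774, plus strand, 250 bases: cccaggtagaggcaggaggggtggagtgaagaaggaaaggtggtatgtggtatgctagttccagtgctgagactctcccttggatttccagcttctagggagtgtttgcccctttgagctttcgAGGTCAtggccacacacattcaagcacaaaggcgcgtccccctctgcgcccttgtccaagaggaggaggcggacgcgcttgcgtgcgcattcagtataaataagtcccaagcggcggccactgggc
Nr2f2, chr7:70366747-70366996, minus strand, 250 bases: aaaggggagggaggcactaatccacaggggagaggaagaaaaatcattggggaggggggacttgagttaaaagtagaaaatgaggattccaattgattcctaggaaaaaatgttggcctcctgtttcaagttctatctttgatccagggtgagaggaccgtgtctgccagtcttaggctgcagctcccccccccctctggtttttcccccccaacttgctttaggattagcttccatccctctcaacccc

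The Lhx9 match is TGATAA on the other strand, 59 bases before the RefSeq start and in an intron of 3 of the 7 annotated transcripts. The Tcf21 match is AGATAA, 31 bases before the start and in an exon of 1 of 2 transcripts. The Nr0b1 match is AGGTCA, 126 bases before the start and outside its 1 transcript. The windows of Emx2, Nr2f2 and Nr2f1 held none of these letters. Such matches are common: of 32851 promoters of the same length, 14% held AGGTCA, 9.99% AGATAA, 7.94% TGATAA and 4.84% TAATTA. In the GENCODE annotation of GRCm38 the members lie on separate chromosomes except Wt1 (ENSMUSG00000016458, chr2:105126529-105173616) and Nr5a1 (ENSMUSG00000026751, chr2:38692656-38714542). Gata4 (ENSMUSG00000021944) spans chr14:63198922-63271692 and Nr0b1 (ENSMUSG00000025056) spans chrX:86191764-86195947. Nr5a1, Emx2, Tcf21 and Nr2f1 each overlap an antisense gene that is also counted (Nr5a1os, Emx2os, Gm10824 and A830082K12Rik), and whether the counting used strand is not given in the sources used here, so their levels carry that limit.

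The libraries kept 50823 cells with at least 200 genes, between 3848 (E18.5) and 11060 (E14.5) per library, and held 31960736 to 124390521 UMIs with a median of 6349 to 11060 UMIs per cell. Somatic cells were assigned by gates that used none of the 10 members: epithelium by at least 2 UMIs of Upk3b, a mesothelial membrane gene, pregranulosa by Wnt6 and Kitl with at least 1 UMI each, and stroma by Col1a1 and Col1a2 with at least 2 each. The gates held 1056, 11794 and 10125 cells, together 45.2% of the cells kept, and 15363 cells passed no gate. Only 200 cells passed the pregranulosa gate at E11.5, and only 16 to 131 cells per library passed the epithelium gate from E14.5 to P5. Lists of genes not used for gating had their highest sum under the matching name in each library. The 5 epithelial genes (Krt19, Krt8, Krt18, Lrrn4, Msln) summed to 486–3543 CPM (UMIs of a gene per 1e6 UMIs of the pool) in epithelium. They summed to 262–450 in pregranulosa and 13.5–102 in stroma over the libraries. Single genes did not all do so: Rspo1, on the pregranulosa list, was at 75.3 CPM in pregranulosa and 89.3 in epithelium at E11.5. Foxl2, which defines granulosa cells, was only at 5.35 CPM in the E11.5 pregranulosa gate against 59.5 at E12.5. Sox9, a testis factor, was at 129 CPM in the same E11.5 gate, so the name is weakest at E11.5. Of the 51564 distinct barcodes, 962 occurred in at least 2 libraries.

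The libraries differed in sex-linked RNA. At E11.5, 34.7% of epithelium, 43% of pregranulosa and 37.0% of stroma cells carried a UMI of a Y-linked gene, and 51.5% to 61.8% carried Xist, the RNA of the inactive X chromosome. At E12.5, labelled ovary, 6.31%, 8.79% and 3.66% still carried a Y-linked UMI, and 90.4% to 96.5% carried Xist. From E14.5 on the share with a Y-linked UMI was at most 0.261% in the gates. Results from E11.5 therefore describe mixed gonads. The ratios between gates and of P5 over E12.5 were recomputed without the cells that held a Y-linked UMI. Co-detection with Gata4 was recomputed in this way over all somatic cells only. Steps between neighbouring ages were not recomputed, and level ratios by Gata4 were recomputed only for Emx2 and Lhx9 in stroma. Sertoli and Leydig genes (Sox9, Amh, Dhh, Insl3, Cyp17a1) summed to 186 CPM in the E12.5 pregranulosa gate, their highest value, with Amh at 86.8 CPM.

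At E11.5 the members split the somatic gates. Gata4, Wt1, Nr5a1, Lhx9, Emx2 and Nr0b1 stood 3.07-fold to 71.1-fold higher in pregranulosa than in stroma, and Nr2f2, Nr2f1, Tcf21 and Cbx2 stood lower, at ratios of 0.235 to 0.424. All 10 members were tested (at least 10 CPM in 1 of the 2 pools), and 6 were past 2-fold higher and 4 past 2-fold lower, whereas of all genes tested 9.77% were past 2-fold higher and 10.0% lower. The median ratio was 4.75 for the members and 0.969 for all genes tested.

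Nr5a1 and Nr0b1 stood furthest apart. Nr5a1 was at 73.1 CPM in pregranulosa, 7.80 in epithelium and 1.56 in stroma at E11.5, so that pregranulosa was 46.8-fold over stroma (interval 30.8–73.7). Nr0b1 was at 103 CPM in pregranulosa, 8.14 in epithelium and 1.44 in stroma, a ratio of 71.1 (interval 46.6–113). Stroma held 26 and 24 UMIs of these genes in 1399 cells, and its levels were near those of erythroid cells (both genes 0.493 CPM), which should lack them. Nr5a1 and Nr0b1 also mark the adrenal. Of 5 adrenal or steroid genes (Cyp11a1, Star, Hsd3b1, Cyp21a1, Mc2r), 4 were detected in the E11.5 pregranulosa gate and summed to 92.3 CPM. Cyp11a1, the first enzyme of steroid synthesis, made up 78.5 CPM, and the rest came from Star, Hsd3b1 and Mc2r. Cyp21a1, which defines adrenal cortex, was at 0. The list summed to 3.65 CPM in epithelium and 8.54 in stroma, and its part in the Nr5a1 and Nr0b1 levels was not tested.

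Gata4, Lhx9, Emx2 and Wt1 followed in the same direction with smaller ratios. Gata4 was at 148 CPM in pregranulosa, 37.7 in epithelium and 21.1 in stroma, so that pregranulosa was 7.03-fold over stroma (interval 6.04–8.20). Lhx9 was at 222, 154 and 24.6 CPM in the same order, and Emx2 was at 242, 116 and 37.5 CPM. The pregranulosa over stroma ratio was 9.05 for Lhx9 (interval 7.92–10.3) and 6.44 for Emx2 (interval 5.73–7.24). For each of these 3 genes the gates kept the order pregranulosa, epithelium, stroma, with no overlap of intervals between neighbours. The Emx2 ratio pools unlike stroma cells. Stroma was at 50.1 CPM in cells with Xist only and 12.8 in cells with Y-linked UMIs only, and pregranulosa at 257 and 234. Over the main setting and the alternatives the Emx2 ratio ran from 3.995 to 7.93. Wt1, which is also known from podocytes and mesothelium, was at 616 CPM in pregranulosa, 399 in epithelium and 201 in stroma, a ratio of 3.07 (interval 2.88–3.27).

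Epithelium shared part of this set. Epithelium over stroma, 8 of 10 members could be tested, and 2 were past 2-fold higher and 1 lower, against 2.92% and 4.26% of all genes tested. Lhx9 (6.26-fold, interval 5.57–7.05) and Emx2 (3.08-fold, interval 2.76–3.44) were the higher ones, and Nr2f1 was the lower one (ratio 0.4503, interval 0.416–0.487, and 0.502 with looser gates). Wt1 (1.99-fold) and Gata4 (1.79-fold) were just inside the limit, and without cells holding a Y-linked UMI Gata4 passed it at 2.36-fold. Nr5a1 and Nr0b1 were under 10 CPM in both pools and were not tested.

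Epithelium also stood apart from pregranulosa. Epithelium over pregranulosa, 3 of 10 members were past 2-fold higher and 4 lower, against 8.88% and 10.3% of all genes tested. Nr0b1 (0.0794), Nr5a1 (0.107), Gata4 (0.254) and Emx2 (0.478) were lower, and Tcf21 (3.57), Cbx2 (3.48) and Nr2f2 (3.03) were higher. Wt1 (0.648) and Lhx9 (0.692) lay between. Nr2f1, at 1.83-fold, passed the limit at 2.03-fold without cells holding a Y-linked UMI.

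The mesenchymal members ran the other way at E11.5. Nr2f2 was at 421 CPM in stroma, 299 in epithelium and 99.0 in pregranulosa, so that pregranulosa was at 0.235 of stroma (interval 0.205–0.268). Nr2f1 was at 270, 122 and 66.4 CPM in that order, a pregranulosa over stroma ratio of 0.246 (interval 0.207–0.289). Tcf21 was at 111 CPM in stroma, 110 in epithelium and 30.8 in pregranulosa, and the first 2 did not differ beyond their counting error (epithelium over stroma 0.988, interval 0.903–1.08). Tcf21 was thus as high in the Upk3b cells as in the collagen cells. Its pregranulosa over stroma ratio of 0.277 (interval 0.214–0.352) reversed to 1.71 when the classes were taken from clusters of cells, in which 608 cells were pregranulosa at E11.5 and no cluster was epithelium. Pericyte genes (Rgs5, Kcnj8, Cspg4) summed to 172 CPM in the E11.5 stroma gate, nearly all of it Rgs5, and to 12.04 in pregranulosa.

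Cbx2 fitted neither pattern. It was at 45 CPM in epithelium, 30.5 in stroma and 12.9 in pregranulosa at E11.5, with intervals that did not overlap between neighbours. Pregranulosa held 29 UMIs and was at 0.424 of stroma (interval 0.281–0.617), and this call was lost with classes from clusters (0.711).

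**Figure D1:**
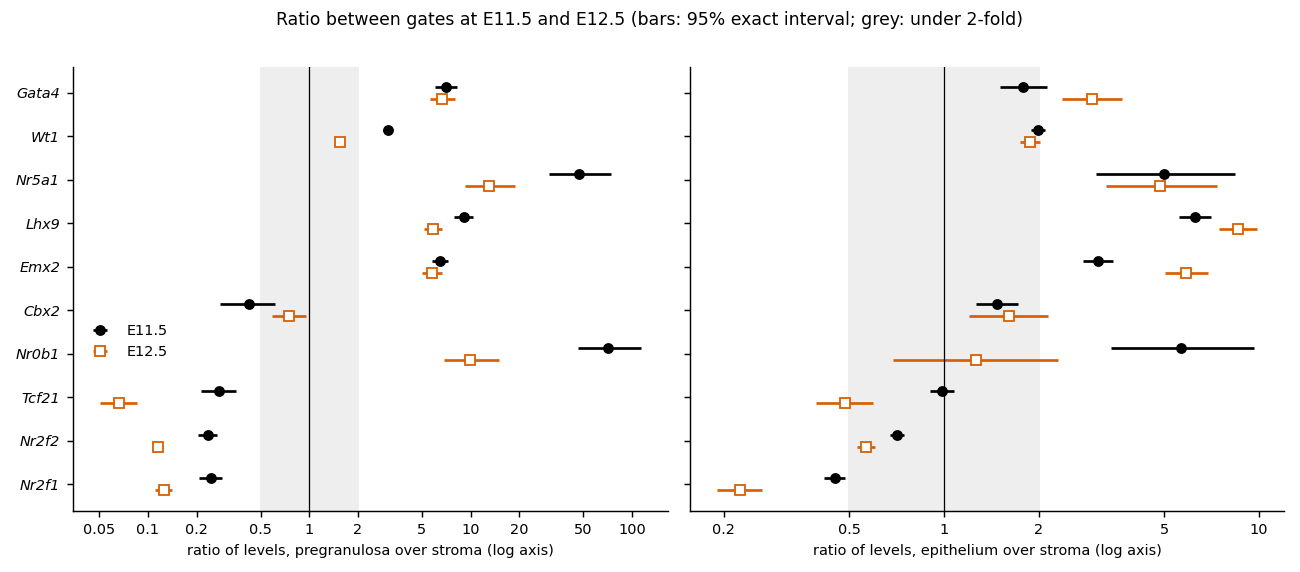
Ratio of levels (CPM) for the 10 factors on a log axis, pregranulosa over stroma on the left and epithelium over stroma on the right, with 95% exact intervals, black circles for E11.5 and open orange squares for E12.5. On the left Nr0b1 and Nr5a1 lie furthest to the right at E11.5 (71.1 and 46.8) and nearer to 1 at E12.5 (9.98 and 12.99), while Tcf21, Nr2f2 and Nr2f1 lie further to the left at E12.5.

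One day later the same division was seen in a library with far more pregranulosa cells. At E12.5, pregranulosa over stroma, 5 of 10 members were past 2-fold higher and 3 lower, against 12.2% and 11.1% of all genes tested, and the median ratio was 3.66 for the members and 0.969 for all genes. Gata4 was at 121 CPM in pregranulosa and 18.1 in stroma, a ratio of 6.69 (interval 5.61–8.03). Lhx9 was at 199 and 34.2 CPM (ratio 5.83) and Emx2 at 166 and 28.7 CPM (ratio 5.77). For Gata4 and Emx2 the intervals at both ages overlapped, and for Lhx9 the E12.5 ratio was the lower one (interval 5.12–6.65). The E11.5 pools held more cells with a Y-linked UMI, and in E11.5 stroma those cells held less Emx2.

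Nr5a1 and Nr0b1 were less far apart at E12.5. Nr5a1 was at 62.2 CPM in pregranulosa and 4.79 in stroma, a ratio of 12.99 (interval 9.28–18.7). Nr0b1 was at 39.6 and 3.97 CPM, a ratio of 9.98 (interval 6.89–15.02). For both genes the interval did not reach that of E11.5. Erythroid cells, the background for free RNA, held 2.47 CPM of Nr5a1 and 1.85 CPM of Nr0b1 at E12.5, with intervals that overlapped those of stroma. Wt1 was at 315 CPM in pregranulosa and 202 in stroma and was no longer past 2-fold (ratio 1.56, interval 1.47–1.65). Cbx2 was at 10.9 CPM in pregranulosa, and its ratio to stroma was 0.749 (interval 0.587–0.959). Without cells holding a Y-linked UMI the E12.5 ratios were 11.9 for Nr5a1, 10.4 for Nr0b1, 7.28 for Gata4 and 1.53 for Wt1.

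The mesenchymal members stood further apart than a day before. Nr2f2 was at 537 CPM in stroma and 61.6 in pregranulosa, a ratio of 0.115 (interval 0.107–0.123). Nr2f1 was at 171 and 21.4 CPM, a ratio of 0.125 (interval 0.111–0.141). Tcf21 was at 58.3 and 3.85 CPM, a ratio of 0.0661 (interval 0.0503–0.0856). None of these 3 intervals reached the interval of the same gene at E11.5.

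Epithelium at E12.5 held its own mix. Epithelium over stroma, 4 of 9 members tested were past 2-fold higher and 2 lower, against 6.17% and 6.87% of all genes tested. Lhx9 was at 294 CPM in epithelium, which was 8.59-fold over stroma (interval 7.49–9.88), and Emx2 (5.86-fold), Nr5a1 (4.86-fold) and Gata4 (2.95-fold) were also higher. Nr2f1 (0.225) and Tcf21 (0.485) were lower, the latter at 0.514 at most under an alternative. Against pregranulosa, 3 of 10 members were past 2-fold higher and 3 lower, beside 8.76% and 10.7% of all genes tested. Tcf21 (7.35), Nr2f2 (4.93) and Cbx2 (2.14) were higher, and Nr0b1 (0.127), Nr5a1 (0.374) and Gata4 (0.441) were lower. The calls of Gata4 (0.593 at most), Nr5a1 (0.519 with classes from clusters) and Cbx2 (1.97 with Upk3b cells of the pregranulosa gate counted as epithelium) were each lost under at least 1 alternative. Emx2 did not differ between epithelium and pregranulosa beyond counting error (168 and 166 CPM, ratio 1.02, interval 0.934–1.10).

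The mesonephros lies beside the gonad, and genes of its tubules were detected in the pregranulosa gate. Of 4 tubule genes (Pax2, Pax8, Gata3, Lhx1), all 4 were detected in it at both ages, and they summed to 87.4 CPM at E11.5, against 14.45 in epithelium and 16.2 in stroma. Over the 7 libraries the sum ran from 5.62 to 87.4 CPM in pregranulosa, 14.45 to 77.3 in epithelium and 0.839 to 16.2 in stroma. Without cells holding Pax8 the pregranulosa over stroma ratios at E11.5 were 7.72 for Gata4, 51.9 for Nr5a1, 75.7 for Nr0b1, 10.5 for Lhx9, 6.49 for Emx2 and 3.44 for Wt1. Each was as high as or higher than with those cells. This left 173 of the 200 pregranulosa cells, and any with Pax2, Gata3 or Lhx1 but no Pax8 UMI stayed in. The part of such cells was not tested.

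The share of cells with at least 1 UMI gave the same picture once every cell was thinned to 5000 UMIs. At E11.5 Gata4 was detected in 53.1% of 177 pregranulosa cells (interval 45.5–60.6), 14.6% of 444 epithelium cells and 8.60% of 1291 stroma cells. Unthinned, the shares were 66%, 23.2% and 14.51%. In erythroid cells the thinned share was 0.373% of 268 cells, and 23, 34 and 108 shallower cells of the 3 gates and 8 erythroid cells were left out. Nr0b1 was detected in 36.7%, 2.03% and 0.387% of the same cells, and Nr2f2 in 37.3%, 69.8% and 79.0%. At E12.5 Gata4 was detected in 43.1% of pregranulosa, 22.4% of epithelium and 7.42% of stroma cells, against 1.69% of erythroid cells.

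Counting members per thinned cell, pregranulosa cells at E11.5 carried a mean of 3.98 of the 10 members, and 42.4% carried 5 or more. Epithelium cells carried 3.11 (18.47% with 5 or more) and stroma cells 2.62 (6.35%). Erythroid cells carried 0.190. At E12.5 the means were 3.38 in epithelium, 3.05 in pregranulosa and 2.59 in stroma, so that epithelium came first and the gates lay closer together.

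Co-detection with Gata4 was examined next, since Gata4 is required at the first step of the ridge. Over all somatic cells at E11.5, thinned to 5000 UMIs, 522 of 6420 cells held Gata4. All somatic cells here took in cells of no gate and cells in more than 1 gate. Wt1 was detected in 66.5% of cells with Gata4 and 33.3% of cells without (intervals 62.2–70.5 and 32.1–34.6). Lhx9 was detected in 40.8% and 8.27%, Nr5a1 in 11.9% and 0.916%, and Nr0b1 in 10.9% and 1.24%. Emx2 (32.4% and 16.1%) and Tcf21 (33.9% and 21.8%) were also more often detected with Gata4. Cbx2 (13.03% and 16.1%), Nr2f2 (63.0% and 68.0%) and Nr2f1 (41.4% and 46.1%) had lower values with Gata4, but the intervals of all 3 overlapped. By intervals that did not overlap, 6 of 9 members were thus higher with Gata4 and 0 lower. Without cells holding a Y-linked UMI, 6 were higher and 1 lower. The same counts at E12.5 were 5 higher and 2 lower, and 5 and 3 without those cells.

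At E12.5, 876 of 3396 somatic cells held Gata4 after thinning. Nr5a1 was detected in 22.0% of cells with Gata4 and 10.2% of cells without, Lhx9 in 53.4% and 31.5%, Emx2 in 49.8% and 35.5%, Nr0b1 in 12.2% and 6.35%, and Wt1 in 77.7% and 65.7%. Over all somatic cells the mesenchymal pair was now apart. Nr2f2 was detected in 39.0% of cells with Gata4 and 63.6% without, and Nr2f1 in 11.1% and 26.4%. Tcf21, more frequent with Gata4 at E11.5, was detected in 8.79% and 11.98% at E12.5, with overlapping intervals. These shares mix the gates, and Gata4 itself differed between the gates, so cells with and without Gata4 were also compared within each gate. In pregranulosa at E11.5, Nr5a1 was detected in 28.7% of cells with Gata4 and 21.7% without, and Nr0b1 in 38.3% and 34.9%, with overlapping intervals. Lhx9 was further apart, at 64.9% and 44.6% (intervals 54.4–74.5 and 33.7–55.9, which overlapped), and the intervals of Wt1 (92.6% and 72.3%) did not overlap. At E12.5 Lhx9 was detected in 48.7% of pregranulosa cells with Gata4 and 53.5% without, with overlapping intervals. Wt1 was detected in 79.8% and 71.6%, and its intervals did not overlap. The mesenchymal pair was not apart in E12.5 pregranulosa, with Nr2f2 at 24.9% and 25.4% and Nr2f1 at 8.65% and 7.91%. In epithelium the intervals of both overlapped, as did those of Nr2f2 in stroma. Those of Nr2f1 in stroma (27.7% and 48.6%) did not. In cells of no gate neither Nr2f2 (56.5% and 74.0%) nor Nr2f1 (11.7% and 30.4%) had overlapping intervals.

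**Figure D2:**
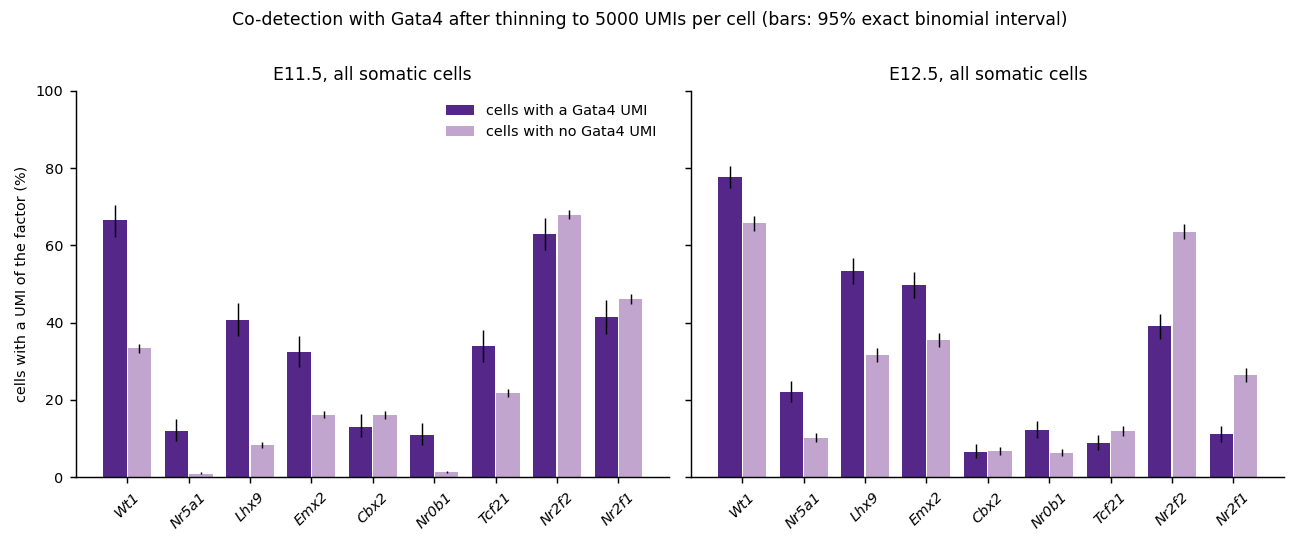
Percent of somatic cells with a UMI of each factor, for cells with (dark) and without (light) a Gata4 UMI, after thinning to 5000 UMIs, at E11.5 (left) and E12.5 (right), with 95% exact binomial intervals. At E11.5 the dark bar is clearly above the light one for Wt1, Nr5a1, Lhx9, Emx2, Nr0b1 and Tcf21, and at E12.5 the order is the other way for Nr2f2 and Nr2f1.

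Within the epithelium gate the E11.5 cells divided by Gata4. By level (CPM, not thinned), the 111 cells with a Gata4 UMI held 428 CPM of Lhx9, against 62.1 in the 367 cells without (ratio 6.90). Nr5a1 was at 25.8 and 1.77 CPM, Nr0b1 at 24.5 and 2.66, Tcf21 at 242 and 65.4, and Emx2 at 195 and 88.9. Nr2f1 was at a like level in both (130 and 119 CPM), and Nr2f2 was slightly lower with Gata4 (263 and 312 CPM, ratio 0.8435, interval 0.753–0.944). In the same cells Fst, a TGF-beta antagonist of pregranulosa cells, was far lower with Gata4, at 2.65 CPM against 70.5 without. Wnt4, the ovary-promoting ligand, was also lower, at 42.4 and 84.9 CPM, as was Irx3, at 2.65 and 21.1 CPM. Rspo1 was alike in both (ratio 0.933, interval 0.759–1.14), and Foxl2 held at most 1 UMI. The lower Fst was not particular to this gate. At E11.5 it was at 4.52 and 27.0 CPM in stroma and 6.29 and 21.4 in cells of no gate, but at 80.4 and 63.7 in pregranulosa. Depth was alike, with a median of 12302 and 11440 UMIs. In thinned cells of this gate Lhx9 was detected in 72.3% with Gata4 (interval 59.8–82.7) and 15.3% without (interval 11.8–19.3). At E12.5 the epithelium cells divided less: the ratio of cells with Gata4 over cells without was 3.32 for Nr5a1, 2.66 for Lhx9, 1.68 for Nr0b1 (interval 0.645–4.67), 1.56 for Tcf21, 1.22 for Emx2 and 1.02 for Wt1. Depth then differed, with a median of 14959 UMIs in cells with Gata4 and 10746 without, and its part was not tested.

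Within pregranulosa the members differed less by Gata4. At E11.5, Nr5a1 was at 91.0 CPM in 132 cells with Gata4 and 36.6 in 68 cells without, Wt1 at 740 and 365, and Lhx9 at 268 and 130. Emx2 (250 and 224 CPM) and Nr0b1 (113 and 81.3 CPM) were closer. The cells without Gata4 held more of the tubule genes, with Gata3 at 126 CPM against 3.32 and Pax2 at 36.6 against 9.96, and were shallower (median 8461 against 11234 UMIs), and the part of both in these differences was not tested. At E12.5 the same cells differed by less than 2-fold in every member, from 0.709 for Cbx2 to 1.83 for Nr5a1.

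Within stroma the cells with Gata4 held more Lhx9 at both ages, 76.0 against 15.8 CPM at E11.5 and 115 against 17.5 CPM at E12.5. Nr0b1 was at 5.75 against 0.704 CPM and 11.2 against 2.47 CPM, from at most 15 UMIs in each pool. Thinned stroma cells could not decide this, because only 5 of 1291 held Nr0b1 at E11.5 and 9 of 633 at E12.5. Nr0b1 was detected in 0.901% with Gata4 and 0.339% without at E11.5. At E12.5 it was detected in 0 of 47 cells with Gata4 and 1.54% of 586 without, and the intervals overlapped at both ages. Depth differed at E12.5, with a median of 12490 UMIs with Gata4 and 9594 without, and its part was not tested. Wt1 was alike in both pools at both ages, at 195 and 202 CPM at E11.5. Emx2 lay on opposite sides at the 2 ages: it was at 17.7 CPM with Gata4 and 40.9 without at E11.5 (ratio 0.432), and at 65.6 and 21.1 CPM at E12.5 (ratio 3.11). In thinned cells the shares with Emx2 lay on the same sides, but the intervals overlapped at both ages.

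Because the E11.5 gonads were mixed, cells holding a Y-linked UMI and no Xist were set against cells holding Xist and no Y-linked UMI. The 2 sets may differ in their mix of cell types, above all among cells of no gate. A Y-linked UMI was in 24.8% of those cells and 43% of pregranulosa cells. The part of this mix in the ratios was not tested. Emx2 was at 12.8 CPM in 420 Y-linked stroma cells and 50.1 in 767 Xist stroma cells, a ratio of 0.255 (interval 0.191–0.334), and at 18.8 and 55.8 CPM in cells of no gate (ratio 0.338). In epithelium (0.738) and pregranulosa (0.911) Emx2 was closer. Gata4 was at 22.1 and 9.51 CPM in cells of no gate (ratio 2.32), at 31.8 and 17.8 in stroma (1.79) and at 186 and 119 in pregranulosa (1.57), whereas epithelium was at 31.4 and 42.2 (0.743).

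In cells of no gate Tcf21 was at 98.7 CPM with Y-linked UMIs and 41.1 with Xist (ratio 2.40), and Nr2f1 at 91.9 and 192 (ratio 0.479). In pregranulosa the members' ratios ran from 0.670 for Lhx9 (174 and 260 CPM) to 1.57 for Gata4, and in epithelium from 0.738 for Emx2 to 1.21 for Lhx9. Sox9, the testis factor, did separate the pregranulosa cells, at 254 CPM with Y-linked UMIs and 32.0 with Xist (ratio 7.92, interval 5.49–11.7). Foxl2 was at 2.40 and 8.48 CPM from 2 and 9 UMIs, with a ratio interval that held 1, and Sry and Amh were at 0 UMIs in both. Sry was at 0 UMIs in epithelium, stroma and cells of no gate too, so whether these counts capture it cannot be told.

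**Figure D3:**
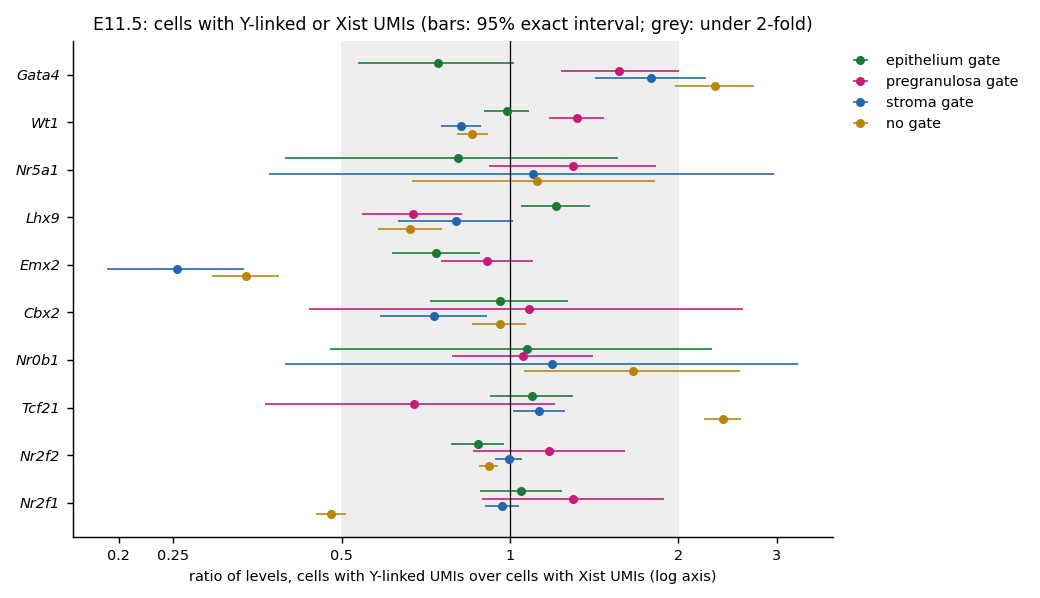
Ratio of levels (CPM) in E11.5 cells with Y-linked UMIs over cells with Xist UMIs for the 10 factors, on a log axis, with 95% exact intervals, by gate and in cells of no gate. Emx2 lies far to the left in stroma (0.255) and in cells of no gate (0.338), while its points in epithelium (0.738) and pregranulosa (0.911) lie nearer to 1.

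Over the later ages the 6 members of the pregranulosa side took separate courses. Over the 7 libraries Wt1 ran from 306 to 616 CPM in pregranulosa (median 394), 380 to 604 in epithelium and 201 to 307 in stroma. Its pregranulosa level was highest at E11.5, and at E12.5 was at 0.511 of that (interval 0.482–0.543). Cells with a Y-linked UMI made up 43% of pregranulosa at E11.5 and 8.79% at E12.5. In the E11.5 gate Wt1 was at 747 CPM in cells with Y-linked UMIs and 568 in cells with Xist. The part of this mix in the Wt1 step, and in every other step from E11.5, was not tested. Gata4 in pregranulosa ran from 86.7 CPM (P5) to 150 (E16.5), and Nr5a1 from 37.9 (P1) to 73.1 (E11.5). For Gata4 the E11.5 level (148 CPM) did not differ from that at E16.5 beyond counting error, and for Nr5a1 the step from E11.5 to E12.5 was also within it (ratio 0.850, interval 0.721–1.008).

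Both were higher late in stroma. Gata4 in stroma was at 21.1, 18.1, 55.9, 99.0, 86.8, 54.5 and 57.2 CPM from E11.5 to P5 in age order, and Nr5a1 at 1.56, 4.79, 7.14, 13.6, 13.6, 16.8 and 22.4 CPM. Erythroid cells held 0.986 to 25.3 CPM of Gata4 and 0.493 to 7.11 CPM of Nr5a1, highest at E16.5 for both, and at E16.5 both lay under the stroma level. From E11.5 to E14.5 the intervals of Nr5a1 in stroma and in erythroid cells overlapped, and from E16.5 on they did not. Those of Gata4 did not overlap at any of the 7 ages. From E12.5 to P5 the ratio in stroma was 3.17 for Gata4 (interval 2.63–3.84) and 4.67 for Nr5a1 (interval 3.29–6.83). Foxl2, a granulosa gene, was also far higher in the stroma gate at P5 than at E12.5 (values given below). The part of granulosa RNA in the stroma levels of Gata4 and Nr5a1 was not tested.

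Lhx9 and Nr0b1 were lower at the last age in pregranulosa. Lhx9 was at 222, 199, 227, 117, 175, 70.4 and 43.3 CPM from E11.5 to P5, a P5 over E12.5 ratio of 0.218 (interval 0.198–0.239). Nr0b1 was at 103, 39.6, 25.1, 13.1, 17.7, 25.3 and 13.7 CPM (P5 over E12.5 ratio 0.346, interval 0.290–0.412). In epithelium Lhx9 stayed high, at 445 CPM at E14.5 and 178 at P5, above pregranulosa in every library from E12.5 on. Emx2 in pregranulosa had no single trend, at 242, 166, 101, 237, 95.2, 127 and 90.6 CPM.

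Nr0b1 in epithelium went the other way between these ages, at 5.03 CPM at E12.5 (21 UMIs) and 41.7 at P5 (31 UMIs in 65 cells), a ratio of 8.29 (interval 4.61–15.2). Between them it was at 12.8, 0, 21.3 and 7.03 CPM, from 0 to 12 UMIs. The sum of the pregranulosa markers was higher in the same gate at P5: the 5 check genes (Wnt4, Fst, Foxl2, Rspo1, Irx3) summed to 145 CPM at E12.5 and 636 at P5, all 5 being detected at both ages. Wnt6 was at 14.4 and 250.2 CPM, Runx1, a factor of supporting cells, at 11.98 and 132 CPM, and Foxl2 at 0.2396 (1 UMI) and 21.5 CPM (16 UMIs). Kitl, which with Wnt6 defines the pregranulosa gate, was at 51.04 CPM at E12.5 (213 UMIs) and 29.59 CPM at P5 (22 UMIs). Upk3b cells that held both Wnt6 and Kitl were left out of epithelium, so the gate itself lowered Kitl. With them epithelium would hold 191 cells at P5 instead of 65, and 427 at E12.5 instead of 317. The lower Kitl at P5 can therefore not be read as a change. The part of the pregranulosa genes in the Nr0b1 ratio was not tested.

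The mesenchymal factors parted company in stroma. Tcf21 was at 111, 58.3, 65.8, 110, 565, 229 and 138 CPM from E11.5 to P5, with a step of 5.14-fold from E16.5 to E18.5 (interval 4.88–5.41). Nr2f1 was at 270, 171, 25.8, 24.9, 13.8, 14.3 and 10.0 CPM, and at P5 was at 0.0584 of E12.5 (interval 0.0488–0.0695). Nr2f2 stayed between 243 CPM (P1) and 541 (E16.5). The main step of Nr2f1 lay between E12.5 and E14.5, at a ratio of 0.151 (interval 0.125–0.181), where the dissociation time also differed, 20 against 40 min, and the 2 cannot be told apart.

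In the other gates these 3 factors were low late. Tcf21 in pregranulosa was at 1.12 to 3.85 CPM from E12.5 on, and from E14.5 on not above erythroid cells by more than counting error. Nr2f2 in pregranulosa was at 24.3 CPM at P5, near the 16.51 of erythroid cells, and at 0.394 of E12.5 (0.534 with classes from clusters). In epithelium Tcf21 had 0 UMIs at P5 against 28.3 CPM at E12.5, so that it was at least 5.61-fold lower by the exact interval of the ratio (0–0.178). Nr2f2 in epithelium was at 0.173 and Nr2f1 at 0.1395 of E12.5.

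Cbx2 had its highest value at the first age in every gate, although in pregranulosa the E11.5 and E12.5 intervals overlapped. From E11.5 to P5 it was at 30.5 and 4.68 CPM in stroma, 12.9 and 5.62 in pregranulosa, and 45 and 16.1 in epithelium. In stroma the P5 over E12.5 ratio was 0.323 (interval 0.234–0.443), and in pregranulosa 0.518 (interval 0.385–0.688).

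From E12.5 to P5, then, 0 of 9 members tested in pregranulosa were past 2-fold higher and 4 lower, against 9.11% and 7.0% of all genes tested. In stroma 3 of 9 were higher and 3 lower, against 8.73% and 6.67%. In epithelium, with only 65 cells at P5, 1 of 10 was higher and 3 lower, against 14.7% and 15.1%. The median ratio of the members was 0.518, 0.706 and 0.650, beside 0.996, 0.919 and 0.914 for all genes tested. The 3 comparisons share no cells, but each sets the same 2 libraries against each other. Leaving out cells of 2 gates weighed unequally on epithelium. With Upk3b cells of the pregranulosa gate counted in, it held 191 cells at P5 instead of 65, and 427 at E12.5 instead of 317. In that setting 1 of 10 members was higher and 4 lower.

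**Figure D4:**
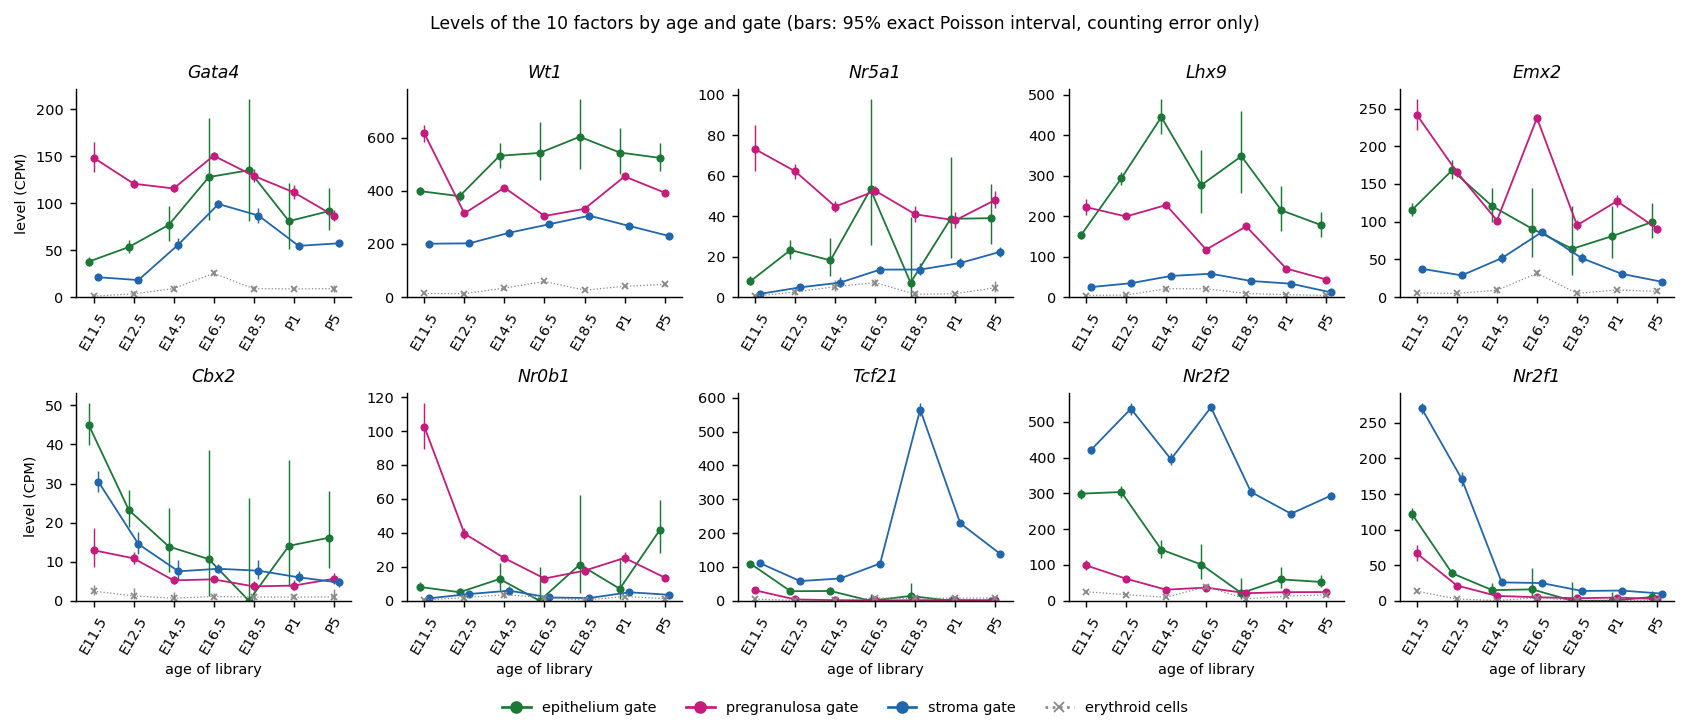
Level (CPM) of each of the 10 factors by age of library, in the epithelium (green), pregranulosa (magenta) and stroma (blue) gates and in erythroid cells (grey crosses, the free RNA background), with 95% exact Poisson intervals. Nr2f1 and Cbx2 are highest at E11.5 in every gate, Tcf21 peaks in stroma at E18.5 (565 CPM), and Wt1 stays above 200 CPM in all 3 gates.

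**Figure D5:**
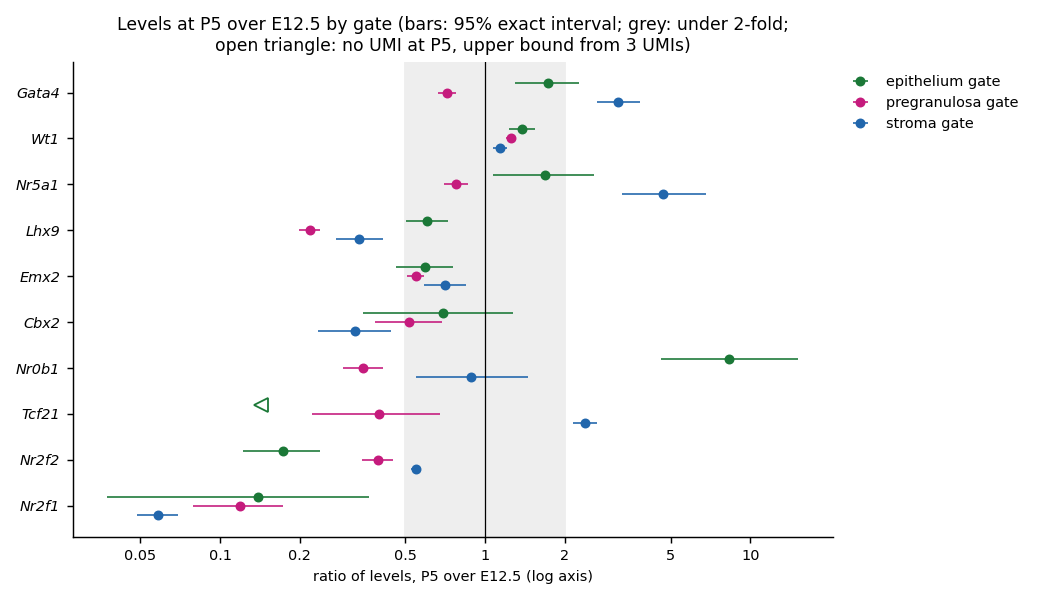
Ratio of the level at P5 over that at E12.5 for the 10 factors on a log axis, by gate, with 95% exact intervals and an open triangle where P5 held no UMI. Gata4, Nr5a1 and Tcf21 lie to the right of the grey band in stroma, Nr0b1 lies to the right in epithelium (8.29), and Nr2f1 lies far to the left in all 3 gates.

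A list of 20 other genes known from the early gonad, sex determination or its supporting lineage was read the same way. At E11.5, pregranulosa over stroma, 14 could be tested, and 6 were past 2-fold higher and 3 lower. Of all genes tested, 9.77% were higher and 10.0% lower. Dmrt1, a testis factor that is also made in early gonads of both sexes, was at 50.4 and 0.2405 CPM (ratio 209, interval 79.6–782, with 4 UMIs in stroma), and Gadd45g, a stress-kinase regulator needed for Sry expression, at 667 and 43.8 CPM (ratio 15.2). Osr1, a factor of intermediate mesoderm, was lower, at 3.12 and 52.7 CPM (ratio 0.0592). At E12.5, 16 could be tested, and 6 were higher and 5 lower, led by Foxl2 (109) and Osr1 (0.0549). The shares of all genes tested were 12.2% and 11.1%.

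For epithelium over stroma 1 of 15 other genes was past 2-fold higher and 4 lower at E11.5, against 2.92% and 4.26% of all genes tested. At E12.5, 2 of 15 were higher and 2 lower, against 6.17% and 6.87%. From E12.5 to P5 in pregranulosa, 2 of 15 were higher and 4 lower, against 9.11% and 7.0% of all genes tested. Foxl2 was at 59.5 and then 380 CPM (6.39-fold), and Wnt4 at 304 and then 59.2 CPM (ratio 0.195). In stroma Foxl2 was at 0.547 CPM at E12.5, from 4 UMIs, and 166 at P5 (ratio 303, interval 118–1114), beside the higher Gata4 and Nr5a1 of that gate. Erythroid cells held 36.3 CPM of Foxl2 at P5, as a measure of free RNA, and doublets of stroma and pregranulosa cells were left out only where they passed both gates. The part of the doublets that remained was not tested.

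Last, the courses of the members were set beside each other and beside other genes over the 21 pools (3 gates in 7 libraries), as Pearson r of log2(CPM + 1), which is a description with no test because pools of a library share depth and free RNA. Among members, Wt1 and Lhx9 (0.799), Tcf21 and Nr2f2 (0.796), Gata4 and Nr5a1 (0.777) and Nr2f2 and Nr2f1 (0.750) were most alike, and Gata4 and Nr2f2 (−0.713) least. Among 9664 other genes, the closest were Doc2b (0.938) and Etnk2 (0.914) for Nr5a1, Rnf128 (0.933) for Lhx9, Stim1 (0.899) for Gata4, Naaa (0.899) for Wt1 and Pglyrp1 (0.909) for Nr0b1. Emx2 was closest to its own antisense gene Emx2os (0.909), with which reads may be shared. On the stroma side Clmp (0.963) and Meis1 (0.954) were closest to Nr2f2, Cxcl12 (0.927) and Ptn (0.923) to Tcf21, and Gpat4 (0.932) and Hoxa7 (0.929) to Nr2f1. Serbp1 (0.922) was closest to Cbx2.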

How the data were processed

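Mouse ovary or gonad cells of 7 ages were captured with 10x Genomics v2 chemistry, 1 library per age, and the deposited values are the authors' UMI counts per gene and cell, made with Cell Ranger 3.1.0 on the 10x mm10 reference, per the labels. The submitters' processing notes also name Seurat. Depth was 31960736 to 124390521 UMIs per library.

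Cells with at least 200 genes were kept. Cells with at least 2 UMIs of germ, endothelial, immune or erythroid markers were set aside before the 3 gates were applied. Cells in more than 1 gate (1945) were left out of every gate. They were counted among all somatic cells in the co-detection shares. Other doublets were kept in the gates, with a Scrublet-based removal as an alternative. UMIs were summed per library and gate, divided by their total and given as CPM. Levels have exact Poisson, ratios exact conditional and shares exact (Clopper-Pearson) binomial intervals. Ratios of 2-fold were counted among genes at 10 CPM or more in 1 of the 2 pools, a pool at 0 being set to 3 UMIs. Shares were compared after thinning to 5000 UMIs.

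All 10 members are named. Other genes are named as the leading members of a list in each direction, or as the 2 genes with the highest correlation to a member among genes at 20 CPM or more. The members and lists were chosen with earlier results of these data known. In all, 10 alternatives were listed at the start and 2 (Y-linked cells removed, Upk3b cells of the pregranulosa gate counted as epithelium) were added after seeing the data. The ratio and interval code was tested on simulated data. Python 3.11.15, numpy 2.4.6, scipy 1.17.1, pandas 2.3.3, scanpy 1.11.5, igraph 0.11.9, scikit-learn 1.9.0 and matplotlib 3.10.9 were used.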

Additional observations from a re-analysis of the deposited data

Results flagged for a closer look

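In 3 cases a member moved in opposite directions in groups that were compared in the same way. None of these differences was tested, because each age is 1 library.

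Nr0b1 was lower at P5 than at E12.5 in pregranulosa, at a ratio of 0.346 (13.7 against 39.6 CPM), and higher in epithelium, at a ratio of 8.29 (41.7 against 5.03 CPM). The epithelium value rests on 31 UMIs in 65 cells at P5 and on 21 UMIs at E12.5, and 5 pregranulosa genes summed to 145 CPM at E12.5 and 636 at P5 in that gate, whose part was not tested.

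Tcf21 was lower at P5 than at E12.5 in epithelium, where P5 held 0 UMIs (ratio 0.143 with that 0 set to 3 UMIs, exact interval 0–0.178), and higher in stroma, at a ratio of 2.38 (138 against 58.3 CPM).

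Emx2 was lower in stroma cells with a Gata4 UMI than in those without at E11.5, at a ratio of 0.432, and higher at E12.5, at a ratio of 3.11. Among cells with no Y-linked UMI the ratios were 0.538 (interval 0.370–0.760) at E11.5 and 3.24 (interval 2.37–4.38) at E12.5, and among cells with one they were 0.282 (interval 0.119–0.573) and 1.77 (interval 0.627–5.67). In thinned stroma cells Emx2 was detected in 4.5% with Gata4 and 11.95% without at E11.5, and in 21.3% and 9.2% at E12.5. The intervals of these shares overlapped at both ages. Depth differed at E12.5 (median 12490 UMIs with Gata4 and 9594 without), and its part was not tested.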

How the results depend on the processing

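Of 85 ratios tested, 54 were past 2-fold, and 46 of these stayed past it under all 12 alternatives (or the 11 that could be run at E11.5 with epithelium). The count of members past 2-fold in E11.5 epithelium over stroma was 3, and 5 when genes at 1 CPM or more were admitted, since Nr5a1 and Nr0b1 were then tested. The ratio of Tcf21 in E11.5 pregranulosa over stroma was 0.277 and reversed to 1.71 with classes from clusters; the cause was not tested. The other calls lost under at least 1 alternative were Cbx2 in E11.5 pregranulosa over stroma, Nr2f1 in E11.5 epithelium over stroma (0.502 with looser gates), Tcf21 in E12.5 epithelium over stroma (0.514 at most), Gata4, Nr5a1 and Cbx2 in E12.5 epithelium over pregranulosa (0.593, 0.519 and 1.97), and Nr2f2 in pregranulosa from E12.5 to P5 (0.534). Of 1002 ratios under alternatives, 899 moved by less than their counting interval, 102 moved more and 1 reversed. Of 1420 shares 236 moved, 178 of them on thinning to 2000 UMIs, and of 54 co-detection values 3 moved. Classes from clusters gave no epithelium cells at E11.5, E14.5, E16.5, E18.5 or P1, so that alternative was not run there. No paired analysis was possible because each age has 1 library, and no replicate could be left out. The epithelium gate held only 16 to 131 cells per library from E14.5 on, which limits what its counts can show.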

Other observations

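Germ cells, which were set aside before gating, held some members above the free RNA of erythroid cells. Nr2f1 was at 24.5 CPM in germ cells at E16.5 against 4.25 in erythroid cells, and at 16.9 against 0.387 at E18.5, and these germ cell levels were above those of pregranulosa (4.96 and 3.57 CPM). Cbx2 was at 17.5 CPM in germ cells at E12.5 against 1.23 in erythroid cells, and at 14.4 against 0.640 at E14.5. Nr0b1 was at 6.80 CPM in germ cells at P5 against 1.32. At E14.5, the age with the most germ cells (2624), the level of Gata4 was no higher in them than in erythroid cells (8.25 and 8.96 CPM).

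Cells of no gate at E11.5 (5488 cells) also divided by Gata4. The 438 cells with a Gata4 UMI held Lhx9 at 121 CPM against 22.9 in those without, Nr5a1 at 12.2 against 1.09 and Wt1 at 229 against 102, while Nr2f2 was at 258 against 296 CPM.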
